A study of Mus musculus with 12 samples.

Results

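Overexpression of NRF2 was compared with an empty vector (EV) in KP1 cells given only the solvent DMSO, by poly-A RNA sequencing. Libraries were taken by their titles: 3 of cells labelled as overexpressing NRF2 and 3 of cells with the empty vector, 6 of the 12 libraries of the series. KP1 cells come from the mouse, and their labelled tumour type is LUAD, lung adenocarcinoma. All 6 cultures were KP1 cells kept in DMEM, plated in RPMI and given DMSO for 16 h. The other 6 libraries were the same EV and NRF2 cells given 5 nM romidepsin, an inhibitor of histone deacetylases, for the same time. The labels give neither the promoter of the vector, the species of the NRF2 sequence, nor whether each line was a pool or 1 clone. The series design calls the replicates biological, without saying whether they came from separate transductions. The p-values thus measure the spread between cultures, estimated over all 12 libraries of the series.

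NRF2, encoded by Nfe2l2, is a transcription factor that pairs with small MAF proteins on antioxidant response elements. KEAP1 binds it in the cytoplasm and has it degraded, and electrophiles or oxidants release it from this control. Its known targets make and use glutathione, reduce quinones and aldehydes, break down haem, store and export iron, and supply NADPH. Lung adenocarcinomas often carry changes in KEAP1 or NFE2L2 that keep the pathway on.

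Depth ran from 17486205 to 28003010 estimated counts in these 6 libraries. The level of a gene is its CPM, its count relative to the TMM-scaled library total. The share of mitochondrially encoded transcripts was 4.84 to 5.40% in 5 of the libraries, against 7.30% for replicate 3 of the NRF2 cells. Its root mean square log2 distance from the other NRF2 libraries was 0.344, against 0.191 to 0.227 for the other 5, so results are given with and without it. Keratins and E-cadherin, which mark epithelial cells, were abundant in both lines: Krt18 measured 1330.0 ± 5.25 and 2030.0 ± 165 CPM in EV and NRF2 cells, and Cdh1 353 ± 11.5 and 417 ± 9.78 CPM. Of 9 general epithelial markers, however, only 5 averaged at least 1 CPM. Epcam measured 0.0307 ± 0.0276 and 0.0657 ± 0.0304 CPM, and the claudins Cldn3, Cldn4 and Cldn7 were also below 1 CPM in both lines. Defining lung markers were near 0 or at 0: Nkx2-1, the lung lineage factor, measured 0.0712 ± 0.0778 and 0.175 ± 0.119 CPM, and Sftpa1, Lamp3, Scgb1a1 and Scgb3a2 had no count. Abca3, the surfactant lipid transporter, was present at 70.9 ± 4.43 and 72.2 ± 2.41 CPM, and so were Foxa1 and Foxa2. The summed level of 9 fibroblast markers was 3.49 to 4.44 CPM in the EV and 3.50 to 7.27 CPM in the NRF2 libraries, with Col3a1 at 0. For 9 leukocyte markers the sum stayed between 2.88 and 5.01 CPM over the 6 libraries, with Adgre1 at 0. In a bulk library, fewer cells of a type and less RNA per cell cannot be told apart.

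Nfe2l2 was higher in the libraries labelled as overexpressing it. The gene (ENSMUSG00000015839.6, chromosome 2, 75675513 to 75704641, minus strand, GRCm38) measured 101, 101 and 103 CPM in the EV libraries and 281, 282 and 352 CPM in the NRF2 libraries. The groups did not overlap, and replicate 3 of the NRF2 cells was the highest of the 6. The difference was 2.99-fold (log2 1.58 ± 0.07 SE, adjusted p = 7.2e-11) and log2 1.47 without that replicate. These counts cannot separate reads of the introduced sequence from those of the cells' own gene. Differences of the other named regulators were small. Keap1, which targets NRF2 for degradation, measured 67.3, 67.2 and 68.4 CPM in the EV libraries and 69.4, 71.01 and 75.02 CPM in the NRF2 libraries and did not pass the test (log2 0.08 ± 0.05 SE, adjusted p = 0.21). Mafg, a small MAF partner, measured 139, 139 and 139 CPM in the EV libraries and 141, 137 and 133 CPM in the NRF2 libraries and did not pass it either (log2 -0.02 ± 0.05 SE, adjusted p = 0.77). Bach1, a repressor that competes for the same elements, was slightly lower (log2 -0.26 ± 0.10 SE, adjusted p = 0.044). That call was lost without replicate 3 of the NRF2 cells (adjusted p = 0.14), replicate 2 of the NRF2 cells (0.067), or replicate 1 (0.15) or 2 (0.10) of the EV cells. Nfe2l1, the related factor that controls proteasome genes, fell from 247 ± 1.11 to 205 ± 4.14 CPM (log2 -0.27 ± 0.04 SE, adjusted p = 2.8e-05). Of 14 genes for NRF2 and its regulators, 3 (21.4%) were called higher and 4 (28.6%) lower, against 19.3% and 16.9% of all genes tested. Without NRF2 replicate 3 there were 5 and 3, and the number lower was 1 without EV replicate 1 and 2 without NRF2 replicate 1.

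Many genes differed between the lines, most of them by little. Of 13502 genes tested, 2608 (19.3%) were called higher and 2287 (16.9%) lower at an adjusted p under 0.05. Without NRF2 replicate 3 these shares were 22.9% and 20.1%, so more calls in a list without it are also seen over all genes. Each list count is to be read beside the shares of its fit. Fold changes were under 1.5 for 1760 of the genes called higher and 1734 of those called lower. At least 2-fold changes numbered 518 higher and 321 lower, and at least 4-fold changes 208 and 111. The median log2 difference over all genes tested was -0.01. The 3 and 3 libraries did not overlap for 5741 genes (42.5%), which included 2444 of the genes called higher and 2145 of those called lower.

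**Figure D1:**
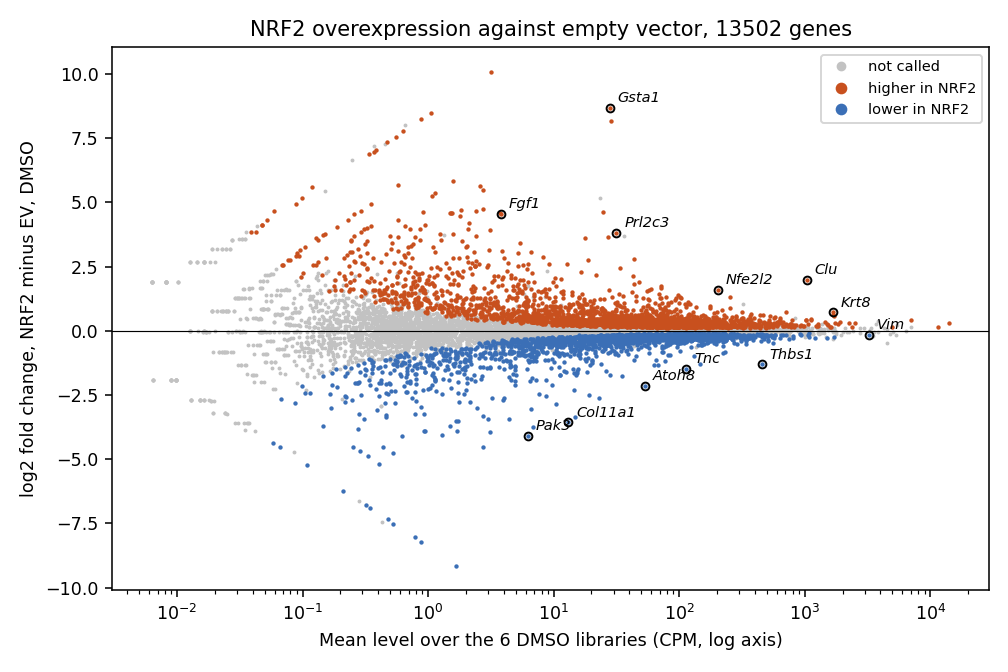
Each point is 1 of 13502 genes, placed by its mean level over the 6 DMSO libraries (CPM, log axis) and its log2 fold change of NRF2 over EV cells; orange and blue points were called higher and lower, and grey points were not called. Gsta1, Prl2c3 and Fgf1 lie far above 0 and Pak3 and Col11a1 far below it, while among abundant genes Clu and Krt8 lie above 0 and Thbs1 below it. For genes with no count in 1 line, the plotted fold change depends on the prior count.

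Glutathione synthesis and recycling genes were mostly higher. Among genes of glutathione synthesis, reduction and cystine supply, 8 of 14 tested members were called higher and 1 lower, with a median log2 difference of 0.40 (9 higher and 1 lower, median 0.40, without NRF2 replicate 3). Gclc (ENSMUSG00000032350.9, chromosome 9, 77754535 to 77794485, plus strand), the catalytic subunit of the rate-limiting enzyme of glutathione synthesis, measured 50.4, 54.2 and 52.7 CPM in the EV libraries and 109, 104 and 118 CPM in the NRF2 libraries. It was higher in each NRF2 library than in any EV library, by 2.11-fold (log2 1.07 ± 0.05 SE, adjusted p = 7.1e-11). Its regulatory partner Gclm rose from 117 ± 2.87 to 162 ± 9.28 CPM (SD, n = 3; log2 0.48 ± 0.05 SE, adjusted p = 9.1e-07). Gss, which adds the last amino acid of glutathione, rose from 57.7 ± 1.73 to 86.4 ± 2.94 CPM (log2 0.58 ± 0.05 SE, adjusted p = 3.6e-08). Gsr, which returns oxidised glutathione to its reduced form, rose from 215 ± 1.55 to 313 ± 5.27 CPM (log2 0.54 ± 0.04 SE, adjusted p = 1.9e-08). Oplah, which recovers glutamate from 5-oxoproline, had a larger difference at low levels (log2 1.47 ± 0.15 SE, adjusted p = 4.2e-07). Slc7a11, the cystine importer, measured 144, 135 and 136 CPM in the EV libraries and 155, 159.6 and 162 CPM in the NRF2 libraries. Its groups did not overlap, but the difference was 1.15-fold (log2 0.20 ± 0.06 SE, adjusted p = 0.014) and was not called without EV replicate 2 (adjusted p = 0.057) or EV replicate 3 (0.053). Ggct, an enzyme of the gamma-glutamyl cycle, was the member that fell (log2 -0.64 ± 0.15 SE, adjusted p = 0.0032).

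Glutathione transferases, which join glutathione to electrophiles, had the highest median among lists with at least 5 tested members. Of its genes, 15 of 23 tested members were called higher and 0 lower, with a median log2 difference of 0.98 (16 higher and 0 lower, median 1.002, without NRF2 replicate 3). Gsta1 (ENSMUSG00000074183.3, chromosome 9, 78230656 to 78242684, plus strand) measured 0, 0 and 0.309 CPM in the EV libraries and 51.1, 56.6 and 59.5 CPM in the NRF2 libraries. It was thus nearly silent in the EV cells, where all of its counts came from replicate 3. Gsta2 had no count in the EV libraries and 5.26, 6.698 and 7.03 CPM in the NRF2 libraries, which is at least 130-fold higher when the EV group is set to the floor of 3 counts in all. Gsta1 and Gsta2 are close copies, so the division of reads between them is uncertain. Gsta3, a further alpha-class member, measured 0.267, 0.118 and 0.193 CPM in the EV libraries and 4.62, 5.78 and 5.57 CPM in the NRF2 libraries (log2 4.73 ± 0.24 SE, adjusted p = 9.6e-11). Gsta4 (ENSMUSG00000032348.6, chromosome 9, 78182774 to 78209349, plus strand), which acts on lipid aldehydes, measured 4.49, 2.902 and 4.36 CPM in the EV libraries and 49.5, 54.7 and 46.3 CPM in the NRF2 libraries. Its difference was 12.6-fold (log2 3.66 ± 0.10 SE, adjusted p = 9.1e-14), with no overlap. Mgst1, a membrane-bound transferase, measured 1.39, 1.89 and 1.35 CPM in the EV libraries and 8.36, 8.83 and 9.45 CPM in the NRF2 libraries (log2 2.54 ± 0.17 SE, adjusted p = 3.3e-09). The abundant Gstm1 rose 1.97-fold, from 37.1 ± 0.421 to 73.3 ± 1.78 CPM (log2 0.98 ± 0.05 SE, adjusted p = 6.8e-11). Gstp1 measured 91.00, 102 and 106 CPM in the EV libraries and 167, 171 and 114 CPM in the NRF2 libraries. Replicate 3 of the NRF2 cells lay between the other NRF2 libraries and the EV libraries, and the log2 difference was 0.60 with it and 0.77 without it.

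Antioxidant response elements share the core TGACNNNGC. The 300-base promoter windows of RefSeq (GRCm38.p6; 250 bases before to 50 after the start) were searched for it on both strands. Sites are shown for genes that rose, for Nfe2l2 itself and for a pair of genes that fell, with the core in capitals, read 5′ to 3′ along the strand that carries it. Gsta3 and Abcc2, an exporter of glutathione conjugates, stand first.
Gsta3, chr1:21240454-21240482, plus strand: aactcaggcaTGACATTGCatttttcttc
Abcc2, chr19:43782200-43782228, plus strand: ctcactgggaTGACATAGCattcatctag
Mgst1, chr6:138140461-138140489, minus strand: ccccgcctccTGACCGTGCcaagccccgc
Srxn1, chr2:152105542-152105570, minus strand: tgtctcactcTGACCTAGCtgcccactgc
Nfe2l2, chr2:75704885-75704913, minus strand: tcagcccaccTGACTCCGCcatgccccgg
Twist1, chr12:33957576-33957604, plus strand: gtcaggccaaTGACACCGCtgcccccaaa
Rps6ka6, chrX:111463643-111463671, plus strand: tcaggagtccTGACTCTGCccaagggcca
The core thus stood in windows of genes that moved in either direction. It was held by 14.1% of the windows of the genes tested (1861 of 13160). Over all windows in the table, those of genes not tested included, the core stood in 12.4% (4071 of 32851). A comparison of its share between changed genes and the rest is void. Only 374 of the 518 genes higher at least 2-fold (72.2%) and 214 of the 321 lower (66.7%) had a window under their symbol, below the 80% such a check needs. A match is a description of letters, not a bound site.

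Thioredoxin and peroxiredoxin genes were called in both directions. Among them, 6 of 20 tested members were called higher and 4 lower, with a median log2 difference of 0.00 (8 higher and 4 lower, median 0.01, without NRF2 replicate 3; 1 lower without EV replicate 2). Srxn1, which repairs oxidised peroxiredoxins, measured 44.97, 47.02 and 46.6 CPM in the EV libraries and 76.2, 80.6 and 73.5 CPM in the NRF2 libraries (log2 0.73 ± 0.05 SE, adjusted p = 2.5e-09). Txnrd1, which reduces thioredoxin with NADPH, was 1.13-fold higher (log2 0.18 ± 0.04 SE, adjusted p = 0.0018). Prdx6, a peroxiredoxin that uses glutathione, fell and measured 184, 202 and 203 CPM in the EV libraries and 149.7, 158 and 127 CPM in the NRF2 libraries (log2 -0.44 ± 0.07 SE, adjusted p = 5.7e-05).

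More enzymes that act on quinones, carbonyls, epoxides and aldehydes were called higher than lower. Of the quinone, carbonyl and epoxide list, 15 of 24 tested members were called higher and 4 lower, with a median log2 difference of 0.59 (15 higher and 3 lower, median 0.61, without NRF2 replicate 3). The 4 called lower with all libraries were Akr1b10, Ephx2, Adh7 and Cyp1b1. Nqo1, the quinone reductase often used as a readout of NRF2, was scarce at 0.160, 0.178 and 0.116 CPM in the EV libraries and 1.33, 1.26 and 0.848 CPM in the NRF2 libraries (log2 2.94 ± 0.41 SE, adjusted p = 2.1e-05). The carbonyl reductases were low in EV cells. Cbr1 measured 0.481, 0.296 and 0.347 CPM in the EV libraries and 3.98, 4.03 and 3.15 CPM in the NRF2 libraries (log2 3.31 ± 0.24 SE, adjusted p = 8.8e-09), and Cbr3 measured 0.0534, 0.237 and 0.0771 CPM in the EV libraries and 5.31, 5.899 and 4.73 CPM in the NRF2 libraries (log2 5.48 ± 0.28 SE, adjusted p = 9.1e-11). Ephx1, the microsomal epoxide hydrolase, was 4.43-fold higher (log2 2.15 ± 0.15 SE, adjusted p = 5.0e-09). The related cytochromes Cyp1a1 and Cyp1b1, both known targets of the aryl hydrocarbon receptor, moved in opposite directions. Cyp1a1 measured 1.71, 1.48 and 1.74 CPM in the EV libraries and 9.68, 10.7 and 9.15 CPM in the NRF2 libraries (log2 2.57 ± 0.15 SE, adjusted p = 7.4e-10). Cyp1b1 measured 26.5, 23.9 and 21.8 CPM in the EV libraries and 3.98, 4.83 and 5.696 CPM in the NRF2 libraries (log2 -2.32 ± 0.12 SE, adjusted p = 1.2e-10). Among aldehyde dehydrogenases, 7 of 15 tested members were called higher and 2 lower, with a median log2 difference of 0.21. The list had 6 higher and 1 lower, median 0.17, without NRF2 replicate 3. Aldh3a1 (ENSMUSG00000019102.10, chromosome 11, 61207537 to 61218421, plus strand), which oxidises aromatic and lipid aldehydes, measured 15.5, 15.6 and 16.5 CPM in the EV libraries and 68.8, 75.05 and 64.2 CPM in the NRF2 libraries, a 4.38-fold difference (log2 2.13 ± 0.07 SE, adjusted p = 9.1e-13). Aldh1a1, a retinaldehyde dehydrogenase, rose 2.02-fold (log2 1.01 ± 0.07 SE, adjusted p = 3.3e-09).

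Genes for haem breakdown and iron export rose while the transferrin receptor fell. For haem breakdown and iron handling, 10 of 21 tested members were called higher and 4 lower, with a median log2 difference of 0.18 (12 higher and 4 lower, median 0.24, without NRF2 replicate 3). Hmox1 (ENSMUSG00000005413.8, chromosome 8, 75093621 to 75100589, plus strand), which opens the haem ring, measured 35.2, 34.9 and 42.1 CPM in the EV libraries and 102, 105 and 92.7 CPM in the NRF2 libraries (log2 1.42 ± 0.07 SE, adjusted p = 2.1e-10). Blvrb, which reduces biliverdin, measured 7.58, 8.705 and 7.52 CPM in the EV libraries and 37.3, 39.7 and 29.3 CPM in the NRF2 libraries (log2 2.18 ± 0.10 SE, adjusted p = 3.8e-11). Slc40a1, which encodes ferroportin, the iron exporter, measured 0.267, 0.0592 and 0.193 CPM in the EV libraries and 4.13, 5.25 and 4.67 CPM in the NRF2 libraries (log2 4.68 ± 0.25 SE, adjusted p = 1.7e-10). All 3 genes kept the groups apart. Slc48a1, a haem transporter, rose from 130.1 ± 13.3 to 194 ± 4.83 CPM (log2 0.57 ± 0.06 SE, adjusted p = 7.4e-07). Ftl1, the ferritin light chain, measured 1600.2, 1741 and 1708 CPM in the EV libraries and 2249, 2231 and 1863 CPM in the NRF2 libraries (log2 0.33 ± 0.06 SE, adjusted p = 5.0e-04). The heavy chain Fth1 measured 1385, 1509 and 1518 CPM in the EV libraries and 1639.9, 1641 and 1429 CPM in the NRF2 libraries and did not pass the test (log2 0.09 ± 0.06 SE, adjusted p = 0.22); without NRF2 replicate 3 it was called (log2 0.16; adjusted p = 0.0013). Tfrc, which brings in transferrin-bound iron, fell from 176 ± 3.54 to 138 ± 3.65 CPM (log2 -0.35 ± 0.04 SE, adjusted p = 8.3e-06). Trf, transferrin itself, was among the largest rises and measured 2.403, 0.947 and 1.003 CPM in the EV libraries and 13.4, 13.4 and 8.42 CPM in the NRF2 libraries (log2 3.06 ± 0.30 SE, adjusted p = 8.1e-06).

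ABC efflux transporters split by gene, with the conjugate exporters Abcc2 and Abcc3 among those higher. In the ABC transporter list, 6 of 12 tested members were called higher and 2 lower, with a median log2 difference of 0.34 (8 higher and 2 lower, median 0.36, without NRF2 replicate 3; 1 lower without EV replicate 1 or NRF2 replicate 2). Abcc2 measured 0.160, 0 and 0.193 CPM in the EV libraries and 3.15, 3.65 and 3.82 CPM in the NRF2 libraries (log2 4.71 ± 0.35 SE, adjusted p = 1.1e-08). Abcc3, which also exports conjugates, measured 5.07, 3.91 and 3.55 CPM in the EV libraries and 12.8, 13.1 and 12.6 CPM in the NRF2 libraries (log2 1.63 ± 0.14 SE, adjusted p = 6.6e-08). Abcg2, a broad drug exporter, went the other way at 15.97, 15.99 and 13.4 CPM in the EV libraries and 8.55, 9.13 and 6.42 CPM in the NRF2 libraries (log2 -0.88 ± 0.10 SE, adjusted p = 3.5e-06). Abca1 was the other member called lower.

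Enzymes that supply NADPH did not move as a block. Here 6 of 17 tested members were called higher and 5 lower, with a median log2 difference of -0.02 (6 higher and 6 lower, median 0.05, without NRF2 replicate 3). The sign of the median thus turned with that library. G6pdx, the first enzyme of the pentose phosphate pathway, measured 150.0, 163 and 161 CPM in the EV libraries and 127, 127 and 132 CPM in the NRF2 libraries and was lower (log2 -0.30 ± 0.04 SE, adjusted p = 3.1e-05). Pgd, the later NADPH-forming step, was slightly higher (log2 0.13 ± 0.04 SE, adjusted p = 0.021), and so were the non-oxidative enzymes Taldo1 (log2 0.41 ± 0.06 SE, adjusted p = 4.8e-05) and Tkt (log2 0.29 ± 0.06 SE, adjusted p = 6.6e-04). Me1, the cytosolic malic enzyme, rose from 116 ± 0.772 to 147 ± 4.56 CPM (log2 0.35 ± 0.05 SE, adjusted p = 1.2e-05). In serine and one-carbon metabolism, 4 of 22 tested members were called higher and 8 lower, with a median log2 difference of -0.10 (6 higher and 8 lower, median -0.08, without NRF2 replicate 3). Mitochondrial Shmt2 and Mthfd2, which make and carry one-carbon units, fell by small amounts (log2 -0.28 ± 0.05 SE, adjusted p = 3.6e-04, and log2 -0.36 ± 0.06 SE, adjusted p = 9.2e-05). Gldc, of the glycine cleavage system, rose (log2 0.82 ± 0.11 SE, adjusted p = 9.1e-06). For ATF4 and its targets in the integrated stress response, 3 of 25 tested members were called higher and 8 lower, with a median log2 difference of -0.06 (5 higher and 6 lower, median 0.02, without NRF2 replicate 3), so this median changed sign too. Asns, asparagine synthetase, was among those that fell (log2 -0.27 ± 0.06 SE, adjusted p = 9.4e-04), and Nupr1, a stress-induced regulator, fell from 91.5 ± 0.557 to 64.6 ± 5.25 CPM (log2 -0.50 ± 0.05 SE, adjusted p = 1.1e-06).

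**Figure D2:**
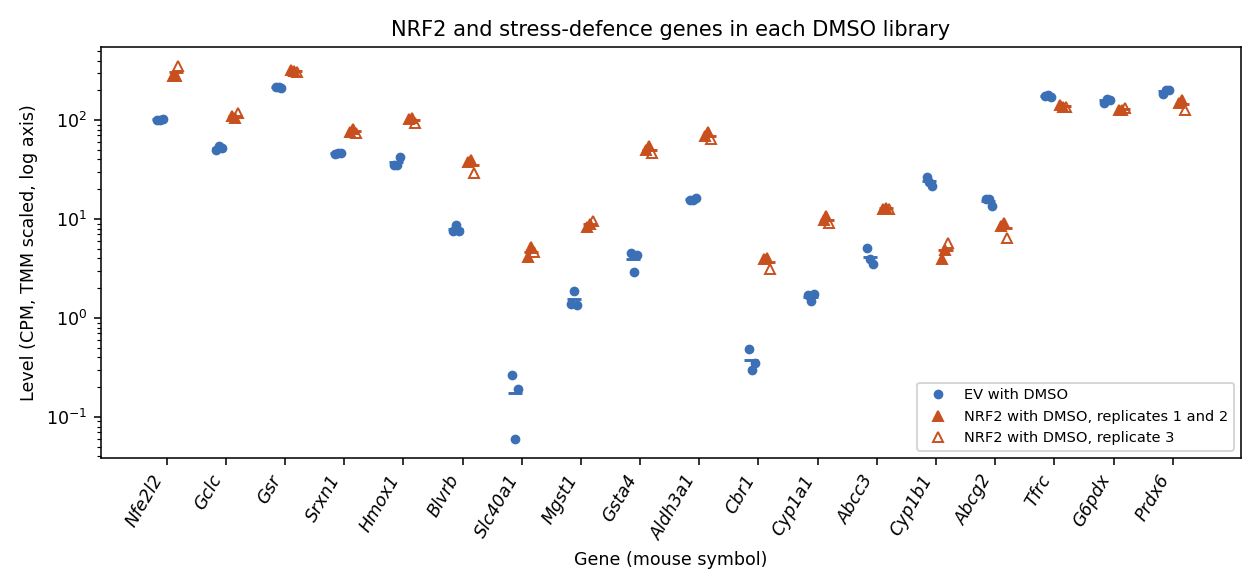
Levels of 18 genes in each DMSO library (CPM, log axis): blue circles are the 3 EV libraries, orange triangles the 3 NRF2 libraries (open for replicate 3), and short lines the group means. Slc40a1, Gsta4 and Cbr1 stand far apart between the lines, Gsr and Srxn1 differ by less, and Cyp1b1, Abcg2, Tfrc, G6pdx and Prdx6 are lower in the NRF2 libraries.

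The 15 largest rises also held genes outside these pathways. Prl2c2 and Prl2c3, which encode proliferins, secreted proteins of the prolactin family, rose together. Prl2c3 (ENSMUSG00000056457.6, chromosome 13, 12790816 to 12800079, minus strand) measured 4.17, 3.97 and 4.397 CPM in the EV libraries and 56.9, 60.7 and 59.7 CPM in the NRF2 libraries (log2 3.81 ± 0.10 SE, adjusted p = 7.0e-14), and Prl2c2 measured 1.495, 2.13 and 2.12 CPM in the EV libraries and 44.1, 46.6 and 52.7 CPM in the NRF2 libraries (log2 4.62 ± 0.21 SE, adjusted p = 2.6e-09). These genes are near copies, so the division of reads between them is uncertain. Anxa10, an annexin, measured 3.15, 2.96 and 2.04 CPM in the EV libraries and 29.3, 31.5 and 38.2 CPM in the NRF2 libraries (log2 3.63 ± 0.16 SE, adjusted p = 6.2e-11). Dhrs3, which reduces retinaldehyde, was 10.6-fold higher (log2 3.41 ± 0.18 SE, adjusted p = 1.0e-10). Cotl1, an actin-binding protein, measured 12.2, 9.83 and 10.95 CPM in the EV libraries and 83.9, 76.7 and 67.3 CPM in the NRF2 libraries (log2 2.79 ± 0.09 SE, adjusted p = 1.7e-12). Cd81, a tetraspanin of the cell surface, measured 5.82, 4.56 and 4.36 CPM in the EV libraries and 34.01, 34.97 and 29.2 CPM in the NRF2 libraries (log2 2.75 ± 0.10 SE, adjusted p = 1.7e-12). Sting1, the adaptor that signals cytosolic DNA, rose from 2.58 ± 0.386 to 15.8 ± 0.387 CPM (log2 2.62 ± 0.13 SE, adjusted p = 5.9e-11). Sprr2h, Nrcam, Disp2 and Calr3 rose by log2 3.03, 2.86, 2.61 and 2.61. Groups did not overlap for any of the genes named in this paragraph, as the rule for naming the largest changes required.

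The largest of the 15 falls named by the rule was in Pak3. This gene (ENSMUSG00000031284.16, chromosome X, 143518591 to 143797796, plus strand), a kinase that acts below RAC and CDC42, measured 12.2, 11.1 and 11.9 CPM in the EV libraries and 0.688, 0.761 and 0.545 CPM in the NRF2 libraries (log2 -4.10 ± 0.19 SE, adjusted p = 3.8e-11). Smoc2, a matricellular protein, measured 13.1, 11.96 and 13.4 CPM in the EV libraries and 1.13, 1.03 and 0.667 CPM in the NRF2 libraries (log2 -3.73 ± 0.17 SE, adjusted p = 3.0e-11). Col11a1, a fibrillar collagen chain, measured 25.9, 24.3 and 22.3 CPM in the EV libraries and 2.02, 1.86 and 2.303 CPM in the NRF2 libraries (log2 -3.56 ± 0.11 SE, adjusted p = 1.9e-13). All 3 were reduced more than 10-fold by the group means. Twist1 (ENSMUSG00000035799.6, chromosome 12, 33957671 to 33959829, plus strand), a transcription factor of epithelial-mesenchymal transition, measured 18.2, 18.6 and 17.9 CPM in the EV libraries and 2.703, 2.25 and 2.79 CPM in the NRF2 libraries (log2 -2.83 ± 0.14 SE, adjusted p = 6.2e-11). Pcdh18, a protocadherin, measured 29.2, 24.8 and 27.00 CPM in the EV libraries and 2.605, 2.63 and 2.54 CPM in the NRF2 libraries (log2 -3.38 ± 0.10 SE, adjusted p = 2.0e-13). Rps6ka6, a kinase of the RSK family, measured 11.6, 11.96 and 11.5 CPM in the EV libraries and 1.28, 1.52 and 1.39 CPM in the NRF2 libraries (log2 -3.05 ± 0.12 SE, adjusted p = 2.9e-12). Atoh8, a bHLH transcription factor, was lower in each NRF2 library, at 81.1, 95.3 and 87.2 CPM in the EV libraries and 19.8, 18.6 and 21.3 CPM in the NRF2 libraries (log2 -2.15 ± 0.08 SE, adjusted p = 1.3e-12). Falls of log2 -2.48, -2.46 and -1.91 were measured for Chst1, a sulfotransferase, Tnfrsf11b, the decoy receptor osteoprotegerin, and Cdcp1, a surface protein.

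By absolute amount, the gains and losses lay in other genes. Clu (ENSMUSG00000022037.15, chromosome 14, 65968483 to 65981547, plus strand), the secreted chaperone clusterin, measured 425, 410.4 and 420.0 CPM in the EV libraries and 1658, 1608 and 1714 CPM in the NRF2 libraries, a 3.97-fold difference (log2 1.99 ± 0.05 SE, adjusted p = 7.0e-14). Keratins of simple epithelia rose: Krt8 measured 1237, 1248 and 1293 CPM in the EV libraries and 2089, 2172 and 1947 CPM in the NRF2 libraries (log2 0.72 ± 0.05 SE, adjusted p = 4.5e-09), and Krt18 rose from 1326 ± 5.25 to 2032 ± 165 CPM (log2 0.62 ± 0.05 SE, adjusted p = 7.5e-08). Among the 8 largest losses was Thbs1, the matrix protein thrombospondin, at 703, 649 and 591 CPM in the EV libraries and 269.8, 243 and 270.3 CPM in the NRF2 libraries (log2 -1.31 ± 0.06 SE, adjusted p = 3.2e-11). Fn1, fibronectin, fell from 1656 ± 104 to 1359.6 ± 119 CPM (log2 -0.28 ± 0.06 SE, adjusted p = 0.0013), and Fscn1, the actin-bundling protein fascin, from 654 ± 34.5 to 467 ± 19.98 CPM (log2 -0.49 ± 0.05 SE, adjusted p = 1.0e-06). Vim, vimentin, was lower by log2 0.16 (adjusted p = 0.018), a call lost without EV replicate 2 (0.053) or 3 (0.065). Of the mitochondrial genes among the largest gains, mt-Co1 measured 12265, 12665 and 13151 CPM in the EV libraries and 14085, 13481 and 19328 CPM in the NRF2 libraries, and replicate 3 of the NRF2 cells was the highest. Its log2 difference was 0.30 with that library and 0.12 without it, and the call was lost without EV replicate 1 (0.12), 2 (0.089) or 3 (0.063).

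More epithelial genes were called higher than lower, and more mesenchymal and matrix genes lower than higher. Of the epithelial junction and keratin list, 9 of 22 tested members were called higher and 1 lower, with a median log2 difference of 0.17 (9 higher and 1 lower, median 0.14, without NRF2 replicate 3; 2 lower without NRF2 replicate 1). Perp, a desmosome-associated protein, measured 74.3, 72.7 and 74.5 CPM in the EV libraries and 159.6, 164 and 156 CPM in the NRF2 libraries (log2 1.11 ± 0.04 SE, adjusted p = 4.7e-12). Krt7 and Krt19 rose by log2 0.74 and 0.66. The fall was in Ocln, which seals tight junctions and measured 1.28, 1.18 and 1.16 CPM in the EV libraries and 0.737, 0.457 and 0.0606 CPM in the NRF2 libraries (log2 -1.44 ± 0.35 SE, adjusted p = 0.0034). Without NRF2 replicate 3, its lowest library, the log2 difference was -1.04 (adjusted p = 0.0037). For transcription factors of epithelial-mesenchymal transition and mesenchymal genes, 3 of 17 tested members were called higher and 8 lower, with a median log2 difference of -0.11 (2 higher and 9 lower, median -0.12, without NRF2 replicate 3). The number higher was 1 without EV replicate 1, EV replicate 2 or NRF2 replicate 1. Besides Twist1, the homeobox factor Prrx1 fell from 36.6 ± 1.85 to 21.9 ± 1.24 CPM (log2 -0.74 ± 0.07 SE, adjusted p = 1.3e-07) and Zeb2 from 38.1 ± 2.89 to 25.03 ± 3.79 CPM (log2 -0.61 ± 0.10 SE, adjusted p = 1.8e-04). Zeb1, the paralogue of Zeb2, was higher at 38.1, 35.5 and 33.6 CPM in the EV libraries and 45.8, 46.5 and 54.4 CPM in the NRF2 libraries (log2 0.45 ± 0.07 SE, adjusted p = 8.3e-05).

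Matrix and matricellular genes had the lowest median of the lists with at least 5 tested members. There 4 of 20 tested members were called higher and 12 lower, with a median log2 difference of -0.84 (5 higher and 12 lower, median -0.77, without NRF2 replicate 3). Tnc, tenascin C, measured 173, 157 and 173 CPM in the EV libraries and 60.8, 60.5 and 60.5 CPM in the NRF2 libraries (log2 -1.47 ± 0.05 SE, adjusted p = 2.8e-13). Vcan, the proteoglycan versican, measured 19.9, 15.5 and 16.3 CPM in the EV libraries and 4.82, 5.100 and 5.696 CPM in the NRF2 libraries (log2 -1.73 ± 0.11 SE, adjusted p = 2.5e-09). Against this majority, Loxl2, which crosslinks collagen, measured 23.1, 20.8 and 17.1 CPM in the EV libraries and 74.5, 72.2 and 77.5 CPM in the NRF2 libraries (log2 1.89 ± 0.08 SE, adjusted p = 8.9e-12). Ccn2 and Sparc were also higher, by log2 0.73 and 0.49. Collagens were called in both directions: 6 of 19 tested members were called higher and 4 lower, with a median log2 difference of -0.11 (6 higher and 6 lower, median -0.06, without NRF2 replicate 3). Col6a1 and Col6a2, chains of collagen VI, fell by 0.85 and 1.15 on the log2 scale. Col27a1, Col18a1 and the basement membrane chain Col4a1 rose by log2 1.32, 0.35 and 0.25. Matrix proteases and their inhibitors also went both ways: 7 of 23 tested members were called higher and 5 lower, with a median log2 difference of 0.05 (6 higher and 5 lower, median 0.09, without NRF2 replicate 3). The number higher was 4 without EV replicate 1 or NRF2 replicate 1. Of these, Adamts1, a protease of proteoglycans, measured 5.93, 5.33 and 5.36 CPM in the EV libraries and 0.393, 0.571 and 0.545 CPM in the NRF2 libraries (log2 -3.44 ± 0.18 SE, adjusted p = 1.5e-10). The protease Mmp15 rose by log2 1.49.

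TGF-beta and BMP signalling genes were called in both directions. On that list, 8 of 27 tested members were called higher and 12 lower, with a median log2 difference of -0.22 (9 higher and 13 lower, median -0.19, without NRF2 replicate 3). The BMP ligand Bmp4 measured 3.47, 3.67 and 3.59 CPM in the EV libraries and 0.836, 1.45 and 0.848 CPM in the NRF2 libraries (log2 -1.72 ± 0.19 SE, adjusted p = 1.8e-06). Smad9, a BMP-branch transducer, measured 6.94, 8.41 and 7.68 CPM in the EV libraries and 2.36, 2.13 and 2.54 CPM in the NRF2 libraries (log2 -1.72 ± 0.15 SE, adjusted p = 1.4e-07). Tgfbi, a matrix protein induced by TGF-beta, measured 16.98, 13.6 and 16.5 CPM in the EV libraries and 3.49, 3.23 and 4.24 CPM in the NRF2 libraries (log2 -2.12 ± 0.12 SE, adjusted p = 3.2e-10). Other members rose: the ligand Tgfb1 by log2 0.35, Bmp7 by 0.60, the transducer Smad3 by 0.23 and Id2, a BMP target, by 0.53. In WNT signalling, 4 of 27 tested members were called higher and 10 lower, with a median log2 difference of -0.03 (4 higher and 10 lower, median -0.07, without NRF2 replicate 3). The ligands Wnt10a and Wnt5b and the receptors Fzd8 and Fzd5 fell, with log2 differences of -1.69, -1.33, -1.37 and -0.94. Fzd5 measured 42.8, 42.2 and 44.1 CPM in the EV libraries and 22.1, 22.6 and 22.4 CPM in the NRF2 libraries (log2 -0.94 ± 0.06 SE, adjusted p = 1.0e-09). The ligand Wnt7a rose from 11.8 ± 0.671 to 24.4 ± 2.35 CPM (log2 1.05 ± 0.09 SE, adjusted p = 4.2e-08), and Tcf7, a transcription factor of the pathway, from 9.09 ± 0.179 to 18.2 ± 0.965 CPM. Of axon guidance genes, 8 of 29 tested members were called higher and 12 lower, with a median log2 difference of -0.05 (8 higher and 13 lower, median -0.10, without NRF2 replicate 3). The receptors Nrp1 and Nrp2, which bind semaphorins and VEGF, fell together. Nrp2 measured 94.5, 90.6 and 87.6 CPM in the EV libraries and 35.6, 34.02 and 37.6 CPM in the NRF2 libraries (log2 -1.35 ± 0.05 SE, adjusted p = 3.4e-12), and Nrp1 fell by 1.33 on the log2 scale. Slit2, a repulsive ligand, fell from 21.96 ± 0.866 to 7.03 ± 0.875 CPM (log2 -1.65 ± 0.09 SE, adjusted p = 3.5e-10), while Sema7a, a membrane-anchored semaphorin, rose from 2.24 ± 0.262 to 8.08 ± 0.823 CPM (log2 1.84 ± 0.12 SE, adjusted p = 3.2e-09).

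More growth factors, annexins and S100 proteins were called higher than lower. Of growth factors, 12 of 26 tested members were called higher and 4 lower, with a median log2 difference of 0.21 (12 higher and 4 lower, median 0.23, without NRF2 replicate 3). Fgf1, a ligand of all FGF receptors, measured 0.320, 0.355 and 0.270 CPM in the EV libraries and 6.34, 7.31 and 8.36 CPM in the NRF2 libraries (log2 4.54 ± 0.22 SE, adjusted p = 4.3e-11). Pgf, a ligand of VEGF receptor 1, rose from 5.805 ± 0.463 to 14.5 ± 0.360 CPM (log2 1.31 ± 0.09 SE, adjusted p = 6.8e-09). Bdnf, a neurotrophin, fell from 47.9 ± 1.86 to 28.5 ± 1.98 CPM (log2 -0.75 ± 0.06 SE, adjusted p = 8.7e-08). Of annexins and S100 proteins, 11 of 19 tested members were called higher and 1 lower, with a median log2 difference of 0.20 (13 higher and 1 lower, median 0.23, without NRF2 replicate 3; 2 lower without NRF2 replicate 2). Anxa6 was the member that fell, at 44.6, 45.1 and 39.5 CPM in the EV libraries and 12.5, 13.7 and 13.1 CPM in the NRF2 libraries (log2 -1.71 ± 0.06 SE, adjusted p = 1.3e-12). Immune genes gave no single direction: of cytokines and chemokines, 5 of 19 tested members were called higher and 7 lower, with a median log2 difference of -0.34 (6 higher and 6 lower, median -0.17, without NRF2 replicate 3). Cx3cl1, a membrane-bound chemokine, rose from 4.23 ± 0.231 to 15.6 ± 0.0833 CPM (log2 1.89 ± 0.09 SE, adjusted p = 4.0e-11). Cxcl16, the other membrane-bound chemokine, fell from 2.89 ± 0.280 to 1.06 ± 0.332 CPM (log2 -1.41 ± 0.21 SE, adjusted p = 4.3e-05). Of interferon-stimulated genes, 1 of 20 tested members was called higher and 5 lower (1 and 4 without NRF2 replicate 3). The number lower was 3 without EV replicate 1, EV replicate 3 or NRF2 replicate 1. Of MHC class I presentation genes, 6 of 15 tested members were called higher and 1 lower (7 and 2 without NRF2 replicate 3). Of 9 gastric and intestinal markers, 4 were tested. Hnf4a, a transcription factor of gut and liver epithelium, measured 44.7 ± 1.79 and 111 ± 4.77 CPM in EV and NRF2 cells (log2 1.32). Lgals4, a galectin of gut epithelium, and Vil1, a microvillus protein, were also higher (log2 1.75 and 2.64). Vil1 was scarce, however, at 0.0761 ± 0.0344 and 0.517 ± 0.186 CPM in EV and NRF2 cells, with 39 counts over the 6 libraries. Cdx2, an intestinal transcription factor, was lower, at 21.9 ± 1.09 and 14.4 ± 1.53 CPM (log2 -0.61). The summed level of the markers was 67.2 to 72.0 CPM in the EV and 132 to 139 CPM in the NRF2 libraries, with Gkn2 and Tff2 at 0. Hnf4a made up most of that sum in both lines, and 3 of the 9 markers averaged at least 1 CPM. The part of these markers in the other results was not tested.

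**Figure D3:**
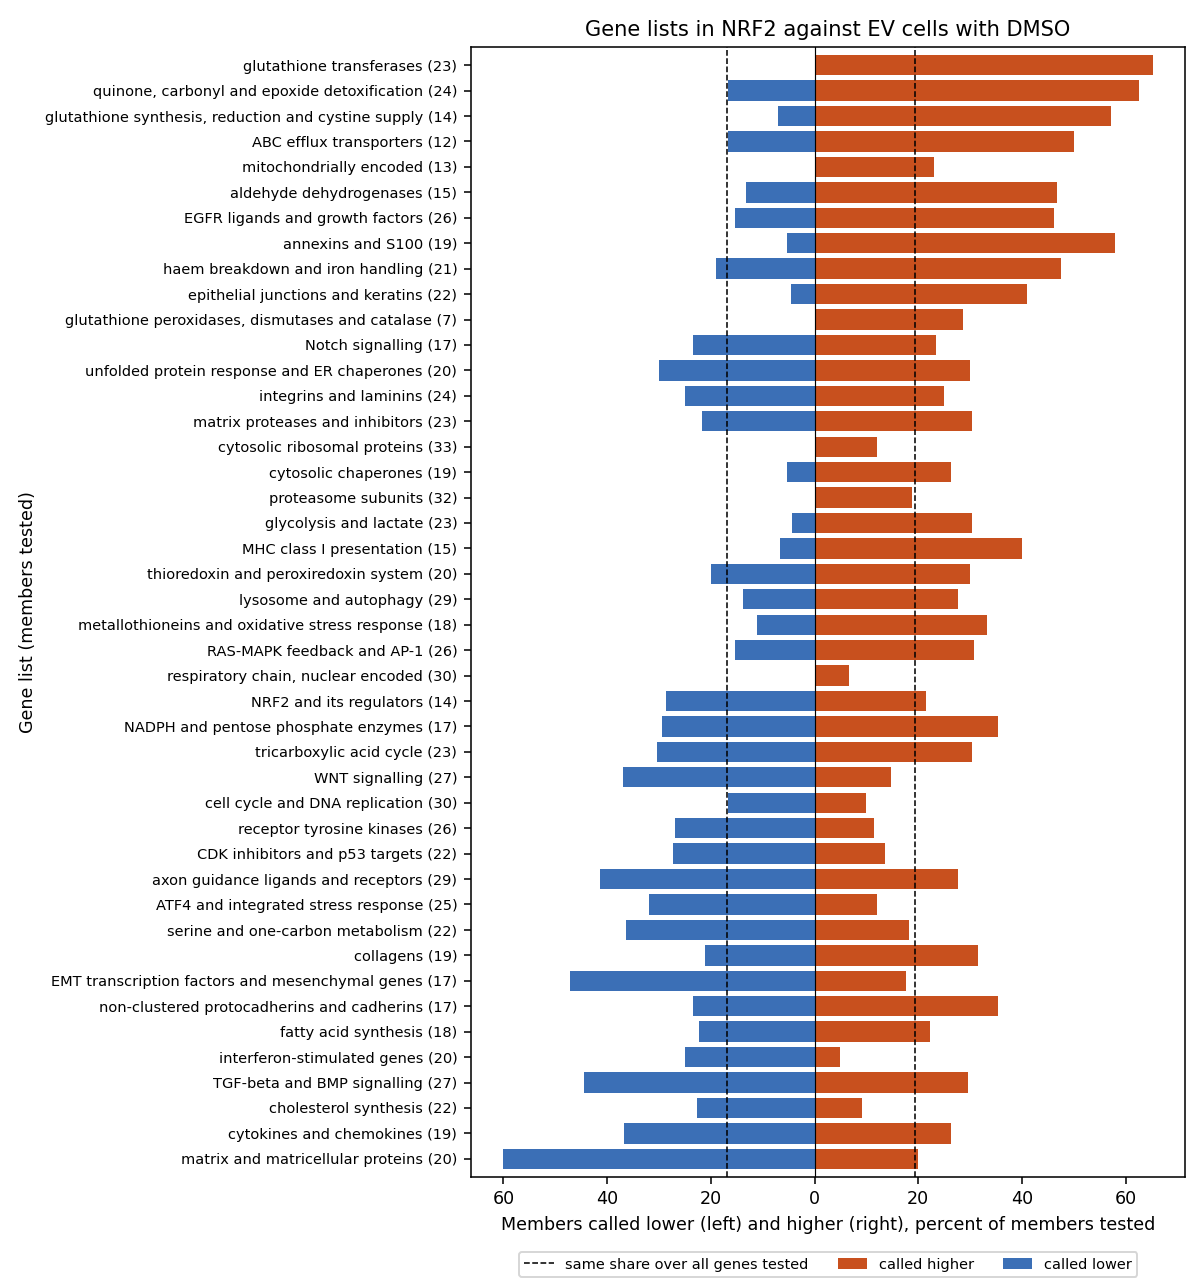
Each bar gives the percent of a list's tested members called lower (blue, left) or higher (orange, right) in NRF2 cells, for lists with at least 5 tested members, ordered by median log2 difference; dashed lines mark the same shares over all genes tested, 16.9% and 19.3%. Glutathione transferases lie at the top with 65.2% higher and 0 lower, and matrix and matricellular proteins at the bottom, with 12 of 20 lower.

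Leaving out replicate 3 of the NRF2 cells raised the number of calls and changed few of the large ones. Without it, 3086 genes (22.9%) were called higher and 2711 (20.1%) lower. Of the original calls, 2479 higher and 2088 lower were made again, 129 and 199 were lost, and 607 and 623 were new. No gene was called in opposite directions. Of the genes changed at least 2-fold, 500 of 518 higher (96.5%) and 305 of 321 lower (95.0%) were still called. The lone pair of NRF2 libraries was assumed to vary like the other groups. By their medians, mitochondrially encoded genes lay 0.472 log2 units above the other NRF2 replicates in this library, cytosolic chaperones 0.175 above, cytosolic ribosomal proteins 0.290 below and nuclear respiratory chain genes 0.238 below. Over all genes tested the median distance was -0.0019. The numbers of calls differed too: 4 of 33 ribosomal protein genes were called higher with the library and 22 without it, and 2 and 12 of 30 nuclear respiratory chain genes. The ribosomal count was 1 without EV replicate 1 and 2 without NRF2 replicate 2. Among the 8 largest calls that were lost, Pecam1, an adhesion molecule of endothelium, measured 9.67, 10.1 and 5.67 CPM in the EV libraries and 4.91, 4.53 and 3.999 CPM in the NRF2 libraries; its adjusted p was 0.0058 with the library and 0.053 without it. Fdps, of cholesterol synthesis, measured 142, 123 and 98.1 CPM in the EV libraries and 88.3, 91.2 and 82.8 CPM in the NRF2 libraries (adjusted p = 0.033 and 0.11). The others were Vmn1r13, Dusp23, B3gnt2, Galnt2, Gm5620 and Gm49396.

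**Figure D4:**
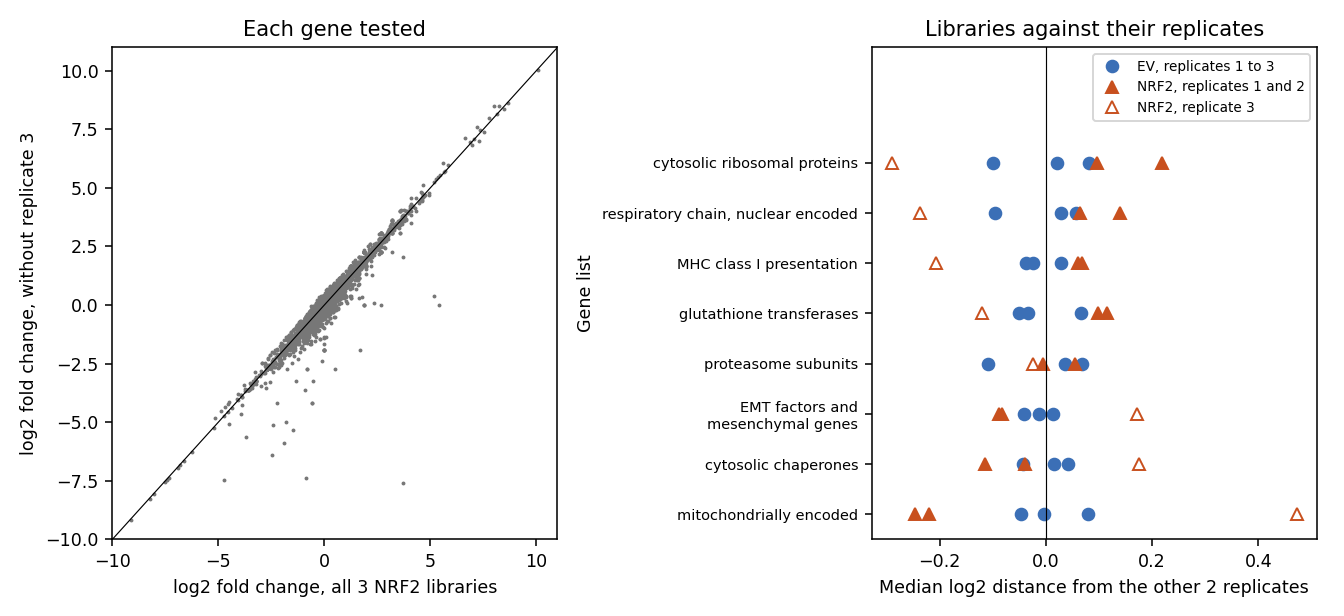
Left, log2 fold changes of each gene tested with all 3 NRF2 libraries and without replicate 3, with the line of equality. Right, the median log2 distance of a gene list in each library from the other 2 replicates of its group; replicate 3 of the NRF2 cells (open triangles) lies at 0.472 for mitochondrially encoded genes and at -0.290 for ribosomal proteins.

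The same contrast in the romidepsin libraries, which share no library with the DMSO comparison, gave 3107 genes higher (23%) and 3026 lower (22.4%). Of the 518 genes higher at least 2-fold with DMSO, 415 were also called higher with romidepsin, 0 lower and 103 neither. Of the 321 lower, 209 were also lower, 7 higher and 105 neither. The median log2 difference was 1.73 with DMSO and 1.02 with romidepsin for the former, and -1.63 and -0.87 for the latter. These genes were chosen for their size with DMSO, and such a choice by itself tends to give smaller values in other libraries. How much it adds to these medians, or to the directions of the interactions below, was not tested. The test of the difference between the arms called 2127 genes (15.8%), among them 185 of the 518 and 110 of the 321. This interaction, romidepsin minus DMSO, was negative for 182 of the 185 and positive for 107 of the 110. In both sets it thus mostly ran against the difference with DMSO.

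Core stress-defence genes differed in how the arms compared. For Gclc the log2 difference between NRF2 and EV was 1.07 ± 0.05 with DMSO and 2.44 ± 0.05 with romidepsin, and the arms differed (interaction 1.37 ± 0.08; adjusted p = 3.6e-09). Hmox1 gave 1.42 ± 0.07 and 2.66 ± 0.07 (interaction adjusted p = 6.4e-07). Gclc and Hmox1 were exceptions: of the 185 called interactions among genes at least 2-fold higher with DMSO, 182 were negative. Srxn1 gave 0.73 ± 0.05 and 2.61 ± 0.05, with 129 ± 5.06 CPM in EV and 785 ± 15.5 CPM in NRF2 cells under romidepsin. In Gsta4 the order was the reverse, 3.66 ± 0.10 with DMSO and 1.25 ± 0.07 with romidepsin, where the levels were 88.6 ± 2.36 CPM in EV and 211 ± 3.74 CPM in NRF2 cells (interaction adjusted p = 2.3e-09). Nfe2l2 itself gave 1.58 ± 0.07 and 1.86 ± 0.07, a difference that did not pass the test (interaction 0.27 ± 0.10; adjusted p = 0.073). Anxa6 was lower in NRF2 cells with DMSO and measured 131 ± 1.17 CPM in EV and 127 ± 2.24 CPM in NRF2 cells with romidepsin (interaction 1.67 ± 0.08; adjusted p = 6.1e-10). Tnc fell further with romidepsin, by log2 -3.02 ± 0.06 (interaction adjusted p = 6.1e-10). Tnc too was an exception, as 107 of the 110 called interactions among genes at least 2-fold lower with DMSO were positive.

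**Figure D5:**
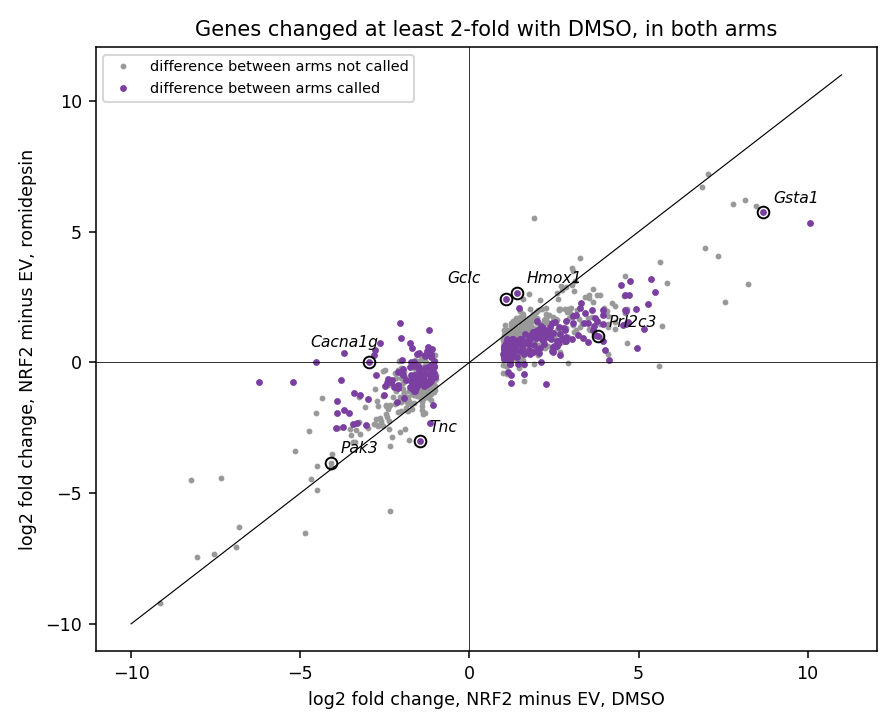
Genes changed at least 2-fold between NRF2 and EV cells with DMSO (518 higher, 321 lower), by their log2 fold change with DMSO and with romidepsin, with the line of equality; purple points were called for the difference between the arms. Gclc and Hmox1 lie above the line, Gsta1 and Prl2c3 below it, and Cacna1g near 0 on the romidepsin axis.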

How the data were processed

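Per the labels' protocols, RNA was extracted with Trizol and poly-A libraries were made with TruSeq chemistry. The submitters' processing notes name bcl2fastq 2.19, kallisto 0.44.0, DESeq2 and the build GRCm38. The file used was the authors' deposited table of kallisto estimated counts, with 1 row a symbol and whole numbers. Of its 35013 genes, 12331 were at 0 in all libraries. The default filter of edgeR 4.0.16 on the 4 groups left 13502 genes. They were tested with its quasi-likelihood test (two-sided, robust, after TMM scaling). A single model held the 12 libraries and left 8 residual degrees of freedom. The Benjamini-Hochberg adjustment ran across every gene in the test, and calls are adjusted p-values under 0.05. A prior count of 0.125 entered the log2 fold changes; dividing their size by the root of the F statistic gave the standard error (SE). Levels are mean ± SD over 3 libraries.

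The comparison and the gene lists were chosen with earlier results of these data known, so list counts are descriptions. Named genes were 4 regulators; the 15 largest rises and falls and 8 largest gains and losses in CPM among called genes without overlap (rises and falls at a mean of at least 5 CPM), predicted genes left out; up to 6 called members per list and those against its majority; 8 calls lost without NRF2 replicate 3; and 6 largest and smallest interactions. Further list members were named after their values were seen. Other settings tried were DESeq2 1.42.0, limma-voom (limma 3.58.1), scaling by RLE, upper quartile or library size, testing all genes with counts, requiring 1 CPM in at least 3 libraries, the DMSO libraries alone, the replicate number as a block, a threshold of 0.01, a prior count of 2, and leaving out each DMSO library. The fit was tested on simulated data. Positions came from GENCODE M21 by symbol, which matched 349 of 351 named genes; 10308 genes tested had a RefSeq promoter.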

Additional observations from a re-analysis of the deposited data

Results flagged for a closer look

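For 12 genes the difference between NRF2 and EV cells was itself different with DMSO and with romidepsin by the interaction test of edgeR; these are the 6 largest and 6 smallest interactions among genes called with DMSO. The interaction was positive for Cacna1g, a calcium channel (log2 2.98 ± 0.30, SE; adjusted p = 5.6e-06), Enpp2, which encodes autotaxin (2.29 ± 0.21; 1.7e-06), Srxn1 (1.87 ± 0.07; 1.4e-11), Vdr, the vitamin D receptor (1.82 ± 0.32; 8.4e-04), Ckb, a creatine kinase (1.79 ± 0.16; 5.9e-06), and the cystine importer Slc7a11 (1.77 ± 0.09; 2.3e-09). It was negative for Prl2c2 (-3.17 ± 0.61; 0.0037), Gsta1 (-2.94 ± 0.83; 0.033), Prl2c3 (-2.82 ± 0.19; 7.2e-08), Gsta4 (-2.41 ± 0.12; 2.3e-09), Tns1, a focal adhesion protein (-2.03 ± 0.41; 0.0028), and S100a7a (-2.03 ± 0.18; 1.1e-06). For Gsta1, all counts of the EV cells with DMSO came from replicate 3, so the size of its interaction rests on few counts. Vdr and Ckb were lower in NRF2 cells with DMSO and higher with romidepsin. Slc7a11 measured 14.7 ± 1.66 CPM in EV and 57.7 ± 4.15 CPM in NRF2 cells with romidepsin, below its level with DMSO in both lines. The cause was not tested.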

How the results depend on the processing

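At a threshold of 0.01 the genes lower numbered 1503 and the interaction calls 1050; under the other alternatives that gave them, the counts over all genes stayed within 1.5 times their reported values. Leaving out each DMSO library in turn gave 2263 to 3086 genes higher and 1883 to 2711 lower, with 466 to 523 and 303 to 347 changed at least 2-fold. Replicate numbers did not pair the samples: the correlations of same-numbered deviations were -0.072, -0.053 and -0.164. With the replicate block there were 2507 genes higher and 2129 lower. The DMSO libraries alone gave 2089 higher and 1565 lower of 12184 genes tested, and 39 of the named genes lost their call. Library size alone as scaling gave 2307 and 2894, so that 44.4% of calls were higher against 53.3%. Of 349 called genes that the naming rule gave, 283 kept direction and call under each of the 17 alternatives that tested them. Some named genes were not tested under the filter of 1 CPM or with the DMSO libraries alone. Mafg was not called under any setting, and its log2 difference of -0.02 ranged from -0.045 to 0.004 when a library was left out, positive only without NRF2 replicate 3. The cause was not tested. Small counts limit genes below about 1 CPM, where a floor of 3 counts is 0.114 to 0.182 CPM in a library. Groups of 3 libraries are too small for the check for outlying samples.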

Other observations

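Some genes had counts in 1 line and none in the other with DMSO. They were chosen after their values were seen, as called genes with at least 30 counts in the 3 libraries of 1 line and 0 in the other. Folds are lower bounds, with the empty group set to a floor of 3 counts in all. The NRF2 cells alone had counts for 9 genes. Besides Gsta2 these included Heph, the membrane ferroxidase hephaestin, with 130 counts and at least 43.2-fold higher, and Krt5, a basal-cell keratin, with 60 counts and at least 19.3-fold higher. Counts in the EV cells alone were seen for 7 genes. Adgrl4, an adhesion receptor, had 203 counts there and was at least 69.7-fold lower in NRF2 cells. Colec10, a collectin, had 110 counts (at least 36.8-fold lower), and Cyp7b1, an oxysterol hydroxylase, had 68 (at least 22.3-fold lower). In the romidepsin libraries Adgrl4 and Cyp7b1 had no count in NRF2 cells and Heph none in EV cells. Other genes named here were not at 0 there: Gsta2 measured 0.189 CPM and Krt5 0.312 CPM in EV cells, and Colec10 0.0916 CPM in NRF2 cells.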
